A study of Mus musculus with 6 samples.

Results

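The genes described here are the 10 that carry the calcium cycle of the heart muscle cell: the release and uptake machinery of the sarcoplasmic reticulum (Atp2a2, Pln, Sln, Ryr2, Casq2 and Trdn), the sarcolemmal channels and exchanger (Cacna1c, Cacna1g and Slc8a1), and the kinase Camk2d. They were found by gene name among the 57010 genes of a table of read counts, each name matched 1 gene, and all 10 were abundant enough to be tested. The libraries came from primary neonatal mouse cardiomyocytes (NMCMs), heart cells dissociated from newborn C57BL/6 mice and enriched by letting the fibroblasts attach first. All 6 cultures were under hypoxia (HO). The HO + Vehicle group had 3 libraries (V1 to V3) and the HO + β-SITO group had 3 (T4 to T6), the latter treated with the plant sterol β-sitosterol. No normoxic library was analysed here, so every comparison is between treated and untreated hypoxic cells, and neither the dose nor the hours of hypoxia are given for these libraries in the sources used here.

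In each heartbeat, calcium enters through voltage-gated channels in the cell membrane and triggers the ryanodine receptor to release a larger amount from the sarcoplasmic reticulum. Relaxation follows when the SERCA pump returns calcium to the reticulum and the sodium-calcium exchanger expels the remainder. Phospholamban and sarcolipin are very small membrane proteins that slow the pump, and in the mouse heart phospholamban is best known from the ventricles and sarcolipin from the atria. Calsequestrin binds calcium inside the store, triadin ties it to the release channel, and CaMKII phosphorylates several of these proteins.

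Of the 10 genes, 1 was a differentially expressed gene (DEG) by the study's cutoffs, which ask for both an adjusted p under 0.05 and a difference above 2-fold. This was Sln, which was 8.43-fold higher in the HO + β-SITO group. By the same cutoffs 22.8% of the 14799 tested genes were DEGs, 12.8% higher and 10.1% lower. None of the 10 was a DEG in the lower direction with edgeR, DESeq2 or limma-voom, and 3 had a lower level with an unadjusted p under 0.05 in edgeR. When only the adjusted p was required, 4 genes were higher (Sln, Casq2, Cacna1c and Atp2a2), 3 were lower (Pln, Slc8a1 and Camk2d) and 3 did not pass (Ryr2, Cacna1g and Trdn). That is 7 of 10, close to the 66.8% of all tested genes that passed in this way (33% higher and 33.8% lower). The median log2 fold change of the 10 genes was 0.22, beside -0.01 over all tested genes and 0.27 over the 20 cardiomyocyte markers described below. Of those markers, 9 were higher and 1 was lower when only the adjusted p was required, so the shift is not particular to the 10 genes. The split of 4 higher and 3 lower depended on the setting. It was 5 higher and 0 lower with upper quartile normalization, with scaling by library size alone and without V1, 4 and 0 without V3, 4 and 1 with DESeq2, and 7 and 2 without T4. Apart from Sln each of the 10 differed by less than 2-fold.

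The libraries held 16694734 to 18460522 counts, of which the 10 genes took 0.228% to 0.406%. Levels are given as CPM, read counts relative to library size after TMM scaling. Each adjusted p is from edgeR's quasi-likelihood test, corrected by the Benjamini-Hochberg method over all tested genes, unless another tool is named. Nothing in the labels says that the 3 libraries of a group came from separate animals or cultures, so the p-values measure the spread between these libraries. The library names of the HO + β-SITO group carry a letter that the others lack. Whatever that letter marks cannot be told apart from β-SITO itself.

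The labelled cell type was checked with 20 cardiomyocyte markers, all of which were detected. Their summed level was 8477 to 9617 CPM in the HO + Vehicle libraries and 7225 to 11686 CPM in the HO + β-SITO libraries, which overlapped. The most abundant per length, Actc1 (cardiac actin), had 1460 ± 147 and 1465 ± 427 CPM (SD, n = 3). Of the 20 markers, 3 (5 without T4) were DEGs with a higher level after β-SITO and 0 with a lower level, the latter also with DESeq2 and limma-voom. At an unadjusted p under 0.05 edgeR gave 10 higher markers and 1 lower. The 10 fibroblast markers summed to more than the 20 cardiomyocyte markers in every library, 30124 to 31360 CPM against 45194 to 46322 CPM, and 1 of 10 was a DEG. RNA of other heart cells differed more between the groups. Endothelial markers rose as DEGs in 10 of 10 cases (summed level 220.1 to 252.9 against 898.9 to 934.9 CPM), macrophage markers in 8 of 10 with 1 lower (1235 to 1356 against 2811 to 3456 CPM), and smooth muscle and pericyte markers in 6 of 10 (1191 to 1298 against 2136 to 2428 CPM). Epicardial markers gave 3 higher and 2 lower among 9 tested genes (919.3 to 956.6 against 203.8 to 245.0 CPM, where Aldh1a2 alone had a mean of 842 against 84.9 CPM), and Schwann cell markers 2 higher among 4 tested. In bulk RNA, fewer cells of a type and less RNA per cell cannot be told apart.

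One library stood apart for the genes described here. Within the HO + β-SITO group, T4 had the lowest level of all 10 genes, at 54.9% (Sln) to 93.0% (Camk2d) of the geometric mean of T5 and T6. Its summed cardiomyocyte markers were at 62.3% of that mean, its fibroblast markers at 100.6% and its macrophage markers at 122.5%. Among the HO + Vehicle libraries V2 was lowest for 8 of the 10 genes. Counts of T4 differed from those of T5 by 8.69 times the counting noise and T5 from T6 by 1.96 times (chi-square per degree of freedom), so no pair of libraries looked like repeat deposits of 1 library. The log2 fold change of each of the 10 genes is therefore given with and without T4. Pairs of HO + Vehicle libraries differed by 4.72 to 7.54 times the counting noise, so T5 and T6 were the most alike pair. Fits without T4 have only these 2 treated libraries, and their adjusted p-values use that small spread. The part of cardiomyocyte content in these results was not tested by any separate measurement of cell number.

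**Figure D1:**
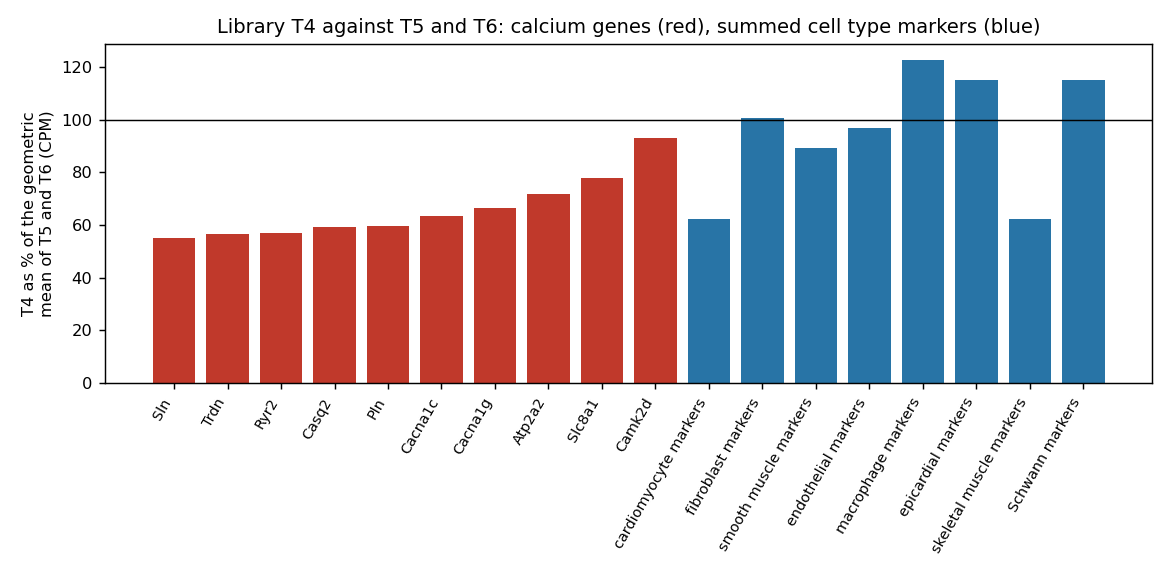
Level of each calcium handling gene (red) and summed level of each list of cell type markers (blue) in library T4, as a percent of the geometric mean of T5 and T6 on the CPM scale, with the line at equality. Every red bar is below the line, from 54.9% for Sln to 93.0% for Camk2d, and the cardiomyocyte markers (62.3%) lie among them while the macrophage markers (122.5%) lie above the line. The skeletal muscle bar is made mostly of Ckm, which is also on the cardiomyocyte list.

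The SERCA pump and its 2 small regulators showed the widest range of behaviour. Atp2a2 encodes the cardiac and housekeeping SERCA2 pump and lies on chromosome 5 from 122591576 to 122640288 on the minus strand (GRCm39, the build in the submitters' processing notes, as for all gene positions given here). Its level was 2176, 1646 and 1921 CPM in V1 to V3 and 2029.5, 2854 and 2811 CPM in T4 to T6. T4 fell between V1 and V3, and T5 and T6 were above every HO + Vehicle library. The group means were 1914 ± 265 and 2565 ± 464 CPM (SD, n = 3). The log2 fold change was 0.42 ± 0.12 (SE, adjusted p = 0.00492), and 0.57 without T4 (adjusted p = 7.03e-07). Atp2a2 passed under each of 13 alternative tools, normalizations, filters and left-out libraries. These 13, referred to for each gene below, leave out the test against a 2-fold change, which among the 10 genes only Sln passed, and the scalings to cardiomyocyte genes. Scaled to the summed counts of the cardiomyocyte markers, Atp2a2 had a log2 fold change of 0.25 (adjusted p = 0.521), and scaled to their geometric mean 0.03 (adjusted p = 0.943).

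Pln encodes phospholamban and lies on chromosome 10 from 53213763 to 53222083 on the plus strand. It had 130.3, 124.6 and 122.5 CPM in V1 to V3 and 65.1, 112.2 and 105.5 CPM in T4 to T6. Every HO + β-SITO library was below every HO + Vehicle library, although T5 and T6 were close to them and T4 was far lower. The log2 fold change was -0.42 ± 0.14 (SE, adjusted p = 0.0141), and -0.21 without T4 (adjusted p = 0.0105). Pln did not pass in 5 of the 13 alternatives, among them DESeq2 (adjusted p = 0.115) and the fits without V1 (0.0616) or without V3 (0.0586). Scaled to the summed cardiomyocyte counts, Pln had a log2 fold change of -0.62 (adjusted p = 0.0746), which did not pass. Scaled to their geometric mean it had -0.84 (adjusted p = 0.0178), which passed. The gene Cep85l, on the opposite strand, overlaps Pln and had 1030 counts over the 6 libraries beside 11317 for Pln. Whether the counting used strand is not given in the sources used here.

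Sln encodes sarcolipin and lies on chromosome 9 from 53757448 to 53761844 on the plus strand. Its level was 1.14, 1.82 and 1.49 CPM in V1 to V3 (18, 29 and 24 counts) and 8.12, 15.01 and 14.6 CPM in T4 to T6 (158, 267 and 280 counts). The lowest HO + β-SITO library was thus well above the highest HO + Vehicle library, on counts that were low in the HO + Vehicle group. The log2 fold change was 3.08 ± 0.26 (SE, adjusted p = 4.25e-08), 3.31 without T4 (adjusted p = 5.27e-15), and from 2.94 to 3.31 over the 13 alternatives, each of which called Sln a DEG. It was the only one of the 10 to be called under any of them. The reading frames of the 2 pump regulators are shown because they are the transcripts that separated most from the pump. They were read from GENCODE vM21 on GRCm38, each lies within a single exon, and capitals mark the start and stop codons.
Sln, chr9:53853473-53853568, plus strand, 31 codons: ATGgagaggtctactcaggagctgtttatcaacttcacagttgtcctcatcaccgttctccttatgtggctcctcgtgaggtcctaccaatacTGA
Pln, chr10:53343864-53344022, plus strand, 52 codons: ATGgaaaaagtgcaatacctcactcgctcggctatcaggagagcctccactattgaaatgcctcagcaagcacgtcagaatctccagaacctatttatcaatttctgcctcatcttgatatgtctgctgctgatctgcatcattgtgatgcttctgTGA
These frames make up 7.28% of the 1318 bases of the Sln transcript and 6.81% of the 2334 bases of the longest Pln transcript.

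Since the pump and its regulators act as a complex, their ratio was computed within each library from counts per kb of exon, which does not depend on library scaling. Such a ratio, here and below, does depend on the mix of cells, whose part was not tested. Exon lengths joined all annotated transcripts of a gene, so these ratios are not numbers of molecules. The level of Atp2a2 per kb was 7.58, 5.996 and 7.11 times that of Pln in V1 to V3, and 14.2, 11.5 and 12.1 times in T4 to T6. The groups did not overlap, and the mean log2 ratio of Pln to Atp2a2 was 0.87 lower in the HO + β-SITO group (difference -0.87, exact permutation test, two-sided, p = 0.1, adjusted p = 0.12 over 6 ratios). It was 414.8, 196.3 and 279.9 times that of Sln in V1 to V3 and 54.2, 41.2 and 41.8 times in T4 to T6. These too did not overlap (difference in log2 ratio of Sln to Atp2a2 2.64, exact permutation test, p = 0.1). Sln approached Pln in level, from 1.12 ± 0.258 against 45.6 ± 1.46 CPM per kb in the HO + Vehicle group to 9.54 ± 2.93 against 34.2 ± 9.25 CPM per kb (SD, n = 3) after β-SITO. The smallest p that 3 libraries against 3 allow is 0.1, so these ratios cannot pass a threshold of 0.05. Without T4 the differences were -0.78 for Pln and 2.77 for Sln.

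**Figure D2:**
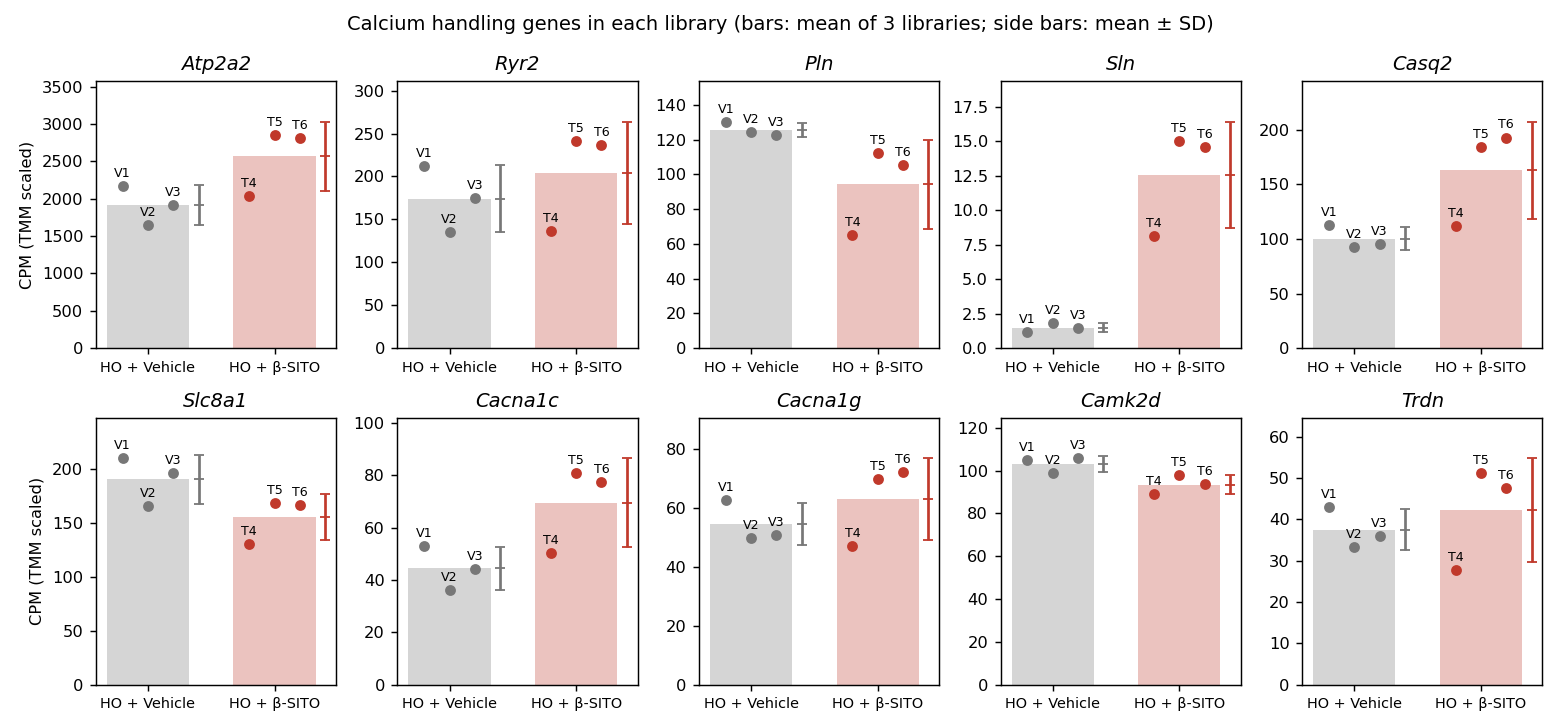
CPM of the 10 calcium handling genes in each library, with grey for HO + Vehicle (V1 to V3) and red for HO + β-SITO (T4 to T6); wide bars give the mean of 3 libraries and the side bars the mean ± SD, on linear axes that start at 0 and differ between genes. Sln separates the groups widely (1.14 to 1.82 against 8.12 to 15.01 CPM), and T4 is the lowest red point in every panel.

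The store and release proteins were led by Casq2. Casq2 encodes cardiac calsequestrin, the calcium buffer of the reticulum, on chromosome 3 from 101993731 to 102053830. It had 112.4, 93.0 and 95.2 CPM in V1 to V3 and 111.7, 184.0 and 193.1 CPM in T4 to T6. T4 lay within the HO + Vehicle range and T5 and T6 far above it. Its log2 fold change was 0.70 ± 0.15 (SE, adjusted p = 6.46e-04) and 0.91 without T4 (adjusted p = 8.83e-11), and it passed in all 13 alternatives. It did not pass when scaled to the summed cardiomyocyte counts (0.50, adjusted p = 0.163) or to their geometric mean (0.28, adjusted p = 0.470).

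Ryr2 encodes the cardiac ryanodine receptor, on chromosome 13 from 11567988 to 12121831. It had 212.7, 135.3 and 175.0 CPM in V1 to V3 and 136.0, 241.0 and 236.3 CPM in T4 to T6. Each group spanned much of the range of the other, and a log2 fold change of 0.23 ± 0.18 (SE) missed the threshold (adjusted p = 0.265). Trdn encodes triadin, on chromosome 10 from 32956550 to 33352705, and had 43.1, 33.4 and 36.1 CPM against 27.8, 51.2 and 47.5 CPM. Its T4 value was below every HO + Vehicle library while T5 and T6 were above them, and its log2 fold change was 0.17 ± 0.16 (SE), which missed the threshold (adjusted p = 0.391). Both genes passed when T4 was left out, Ryr2 at 0.45 (adjusted p = 5.29e-04) and Trdn at 0.40 (adjusted p = 4.83e-04), so their outcome changed with 1 library. Of the 13 alternatives Trdn passed in only this 1. Ryr2 passed in 2, the other being the fit without a low-count filter (adjusted p = 0.00202).

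The ratio of Trdn to Ryr2 in counts per kb was nearly level, at 0.624, 0.760 and 0.634 in V1 to V3 and 0.629, 0.653 and 0.619 in T4 to T6 (difference in log2 ratio -0.08, exact permutation test, two-sided, p = 0.6). T4 did not stand apart on this ratio. By contrast, the ratio of Casq2 to Ryr2 was 5.56, 7.24 and 5.72 in V1 to V3 and 8.64, 8.03 and 8.60 in T4 to T6, without overlap between the groups (difference in log2 ratio 0.46, exact permutation test, two-sided, p = 0.1). The difference was 0.44 without T4.

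Upstream windows were present for 6 of the 10 genes in the RefSeq promoter table (GRCm38.p6). The windows of Casq2 and Pln, the higher store protein and the lower pump regulator, are shown over the 250 bases before the annotated start. Capitals mark matches on either strand to 6 motifs. These were the TATA box (TATAAA), the GATA core (AGATAA), the E-box (CANNTG, which is its own reverse complement), the M-CAT motif (CATTCC), the MEF2 motif and the CArG box.
Casq2, chr3:102086165-102086414, plus strand: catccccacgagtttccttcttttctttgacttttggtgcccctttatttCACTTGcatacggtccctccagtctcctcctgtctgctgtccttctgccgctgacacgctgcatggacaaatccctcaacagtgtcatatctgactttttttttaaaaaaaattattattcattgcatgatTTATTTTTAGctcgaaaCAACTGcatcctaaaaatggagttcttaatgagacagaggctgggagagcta
Pln, chr10:53337436-53337685, plus strand: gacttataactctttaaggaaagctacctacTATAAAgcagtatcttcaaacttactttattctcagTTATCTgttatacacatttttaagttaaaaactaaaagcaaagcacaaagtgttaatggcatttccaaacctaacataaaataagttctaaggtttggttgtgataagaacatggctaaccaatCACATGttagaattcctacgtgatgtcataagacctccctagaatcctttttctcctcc
The Casq2 window held a MEF2 match that begins 69 bases before the start and 2 E-boxes. The Pln window held 1 E-box, 1 match to the TATA box letters that begins 219 bases before the start, and 1 GATA core on the opposite strand. Of 32851 windows of this length, 2.92% held a MEF2 match, 66.2% an E-box, 12.4% a TATA box and 9.99% a GATA core. M-CAT (12.6% of windows) and the CArG box (1.47%) had no match in either window. These matches describe the letters of the windows and were not set against the expression values.

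Of the sarcolemmal channels, Cacna1c moved more than Cacna1g. Cacna1c encodes the pore of the L-type calcium channel, on chromosome 6 from 118564201 to 119173851. It had 52.9, 36.3 and 44.3 CPM in V1 to V3 and 50.3, 81.1 and 77.6 CPM in T4 to T6. T4 again lay inside the HO + Vehicle range. Its log2 fold change of 0.65 ± 0.15 (SE, adjusted p = 0.00153) was 0.84 without T4 (adjusted p = 4.83e-08), and it passed in all 13 alternatives. With the summed cardiomyocyte scaling it was 0.46 (adjusted p = 0.197) and with the geometric mean 0.24 (adjusted p = 0.535), neither of which passed. Dcp1b overlaps Cacna1c on the opposite strand and had 580 counts over the libraries beside 6041 for Cacna1c.

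Cacna1g encodes a T-type channel of the developing heart and the pacemaker tissue, on chromosome 11 from 94299217 to 94365024. It had 62.9, 50.03 and 50.8 CPM in V1 to V3 and 47.1, 69.9 and 72.1 CPM in T4 to T6, with T4 the lowest of all 6. A log2 fold change of 0.21 ± 0.13 (SE) missed the threshold (adjusted p = 0.175), and the value was 0.38 without T4 (adjusted p = 4.02e-04) and 0.34 without V1 (adjusted p = 0.0494). In all, Cacna1g passed in 5 of the 13 alternatives. The others were upper quartile normalization (adjusted p = 0.0261), scaling by library size alone (0.0242) and the fit without a low-count filter (0.0137). The ratio of Cacna1g to Cacna1c in counts per kb was 2.49, 2.88 and 2.40 in V1 to V3 and 1.96, 1.80 and 1.94 in T4 to T6. All HO + β-SITO values were below all HO + Vehicle values (difference in log2 ratio -0.44, exact permutation test, two-sided, p = 0.1).

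Slc8a1 encodes the sodium-calcium exchanger, the main route of calcium out of the cell, on chromosome 17 from 81680534 to 82045806. It had 210.0, 165.9 and 196.5 CPM in V1 to V3 and 130.8, 168.9 and 167.0 CPM in T4 to T6. T5 and T6 lay just above V2, so the groups overlapped there. The log2 fold change was -0.30 ± 0.10 (SE, adjusted p = 0.0142), and -0.18 without T4 (adjusted p = 0.0460). Slc8a1 did not pass in 4 of the 13 alternatives, with an adjusted p of up to 0.187, among them the fits without V1 (0.112) or without V3 (0.0911). Relative to the pump the difference was steadier. The level of Atp2a2 per kb was 32.0, 30.7 and 30.2 times that of Slc8a1 in V1 to V3 and 48.0, 52.3 and 52.0 times in T4 to T6 (difference in log2 ratio of Slc8a1 to Atp2a2 -0.71, exact permutation test, two-sided, p = 0.1). The spread of this ratio within either group was small beside the gap between the groups.

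Camk2d encodes the main cardiac CaMKII isoform, on chromosome 3 from 126389951 to 126639975. It had 105.1, 98.9 and 105.7 CPM in V1 to V3 and 89.0, 97.9 and 93.5 CPM in T4 to T6. The groups did not overlap by a narrow margin, and T4 was much nearer to T5 and T6 than for the other genes. The log2 fold change of -0.14 ± 0.06 (SE, adjusted p = 0.0463) passed in only 2 of the 13 alternatives, limma-voom and the fit without V2. Without T4 it was -0.11 (adjusted p = 0.175), without any 1 of the other 4 libraries the adjusted p was 0.0883 to 0.204, and when counts were scaled by library size alone the value was 0.00 (adjusted p = 0.950). In all, 3 of the 10 genes (Pln, Sln and Camk2d) had no overlap between the groups in CPM, beside 70.5% of all tested genes (34.8% without overlap and higher).

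**Figure D3:**
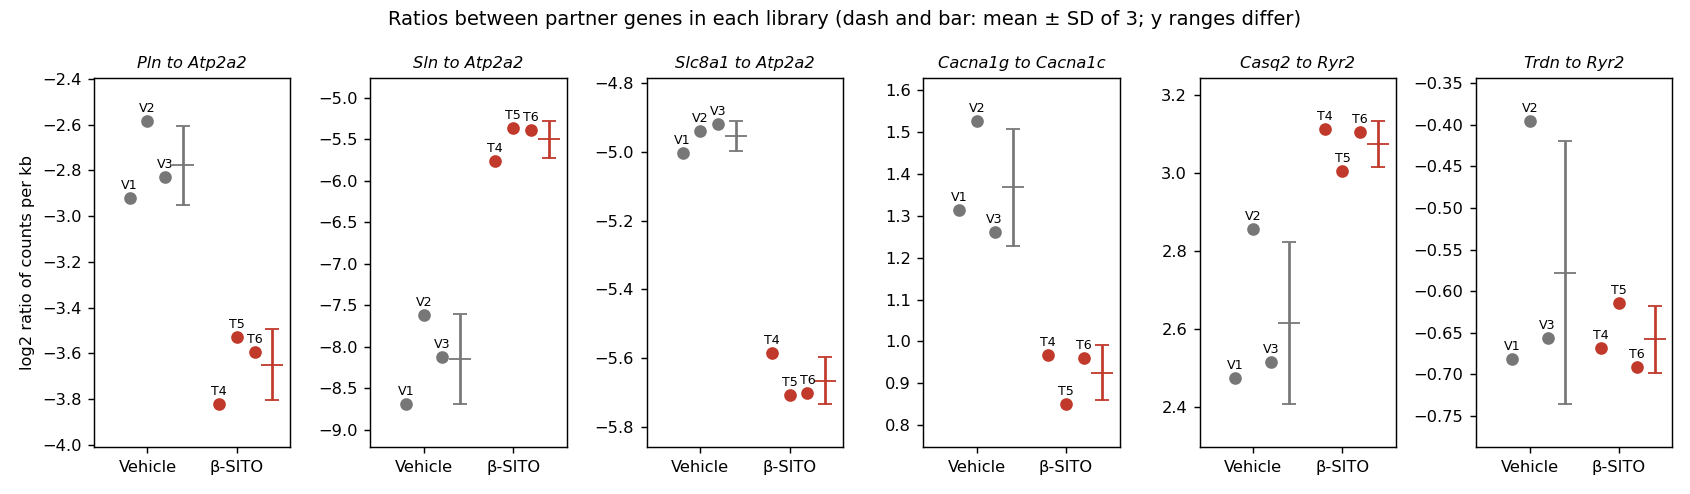
Ratios between partner genes in each library, as log2 of the ratio of counts per kb of exon, with grey for HO + Vehicle and red for HO + β-SITO; dashes and bars give the mean ± SD of 3 libraries and the vertical ranges differ between panels. The groups do not overlap for 5 of the 6 ratios, and they overlap for Trdn to Ryr2, where the difference is -0.08. Among all tested genes 70.5% did not overlap in CPM. No such share was computed for ratios of other gene pairs, so the count of 5 is a description only.

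Compared per kb of exon, the order of the genes in the HO + Vehicle group began with Atp2a2 (314.8 ± 43.5 CPM per kb), Pln (45.6 ± 1.46), Casq2 (36.6 ± 3.89) and Slc8a1 (10.1 ± 1.20). It went on with Ryr2 (6.06 ± 1.34), Cacna1g (5.38 ± 0.714), Camk2d (4.59 ± 0.166), Trdn (4.01 ± 0.534), Cacna1c (2.10 ± 0.391) and Sln (1.12 ± 0.258). Libraries overlapped between Ryr2 and Cacna1g and between Camk2d and Trdn, and between no other neighbours. In the HO + β-SITO group Casq2 (59.5 ± 16.3 CPM per kb) stood above Pln (34.2 ± 9.25), and Sln (9.54 ± 2.93) moved from the last place to the fourth. The 6 genes from Sln through Slc8a1 (8.27 ± 1.14), Ryr2 (7.10 ± 2.06), Cacna1g (6.22 ± 1.37) and Trdn (4.51 ± 1.34) to Camk2d (4.16 ± 0.197) each overlapped with the next, and Cacna1c (3.29 ± 0.794) came last. Both orders depend on exon lengths joined over all annotated transcripts, so they are not orders of numbers of molecules. For example, Camk2d (103.2 CPM over 22493 bases) and Casq2 (100.2 CPM over 2736 bases) had similar mean CPM in the HO + Vehicle group. Atp2a2 alone held 69.0% to 75.3% of the counts of the 10 genes in a library.

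Because cardiomyocyte RNA varied between libraries, each gene was also expressed per 1000 counts of the 20 cardiomyocyte markers. On this scale the groups did not overlap for 6 of the 10 genes, beside 43.9% of all tested genes. Pln was 13.5, 14.7 and 14.5 in V1 to V3 and 9.01, 9.76 and 9.03 in T4 to T6, and Casq2 was 11.7, 11.0 and 11.2 against 15.5, 16.0 and 16.5. T4 was close to T5 and T6 for both genes. It was instead the highest treated library for Camk2d (12.3 against 8.51 and 8.005), Slc8a1 (18.1 against 14.7 and 14.3) and Atp2a2 (280.9 against 248.2 and 240.5). Sln (7.44-fold), Casq2 (1.42-fold), Cacna1c (1.38-fold) and Atp2a2 (1.19-fold) were higher, Pln (0.651-fold) and Slc8a1 (0.727-fold) were lower, and each of the 6 gave p = 0.1 in the exact permutation test, the smallest possible. Ryr2, Cacna1g, Camk2d and Trdn overlapped, with folds of 1.03, 1.02, 0.809 and 0.976. The markers used as the yardstick were not themselves level (Myh6 had a log2 fold change of 0.53 and Tnnt2 of -0.47). In edgeR with this scaling only Sln passed (log2 fold change 2.86), where the biological coefficient of variation over all genes was 21.4% in place of 6.52%.

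**Figure D4:**
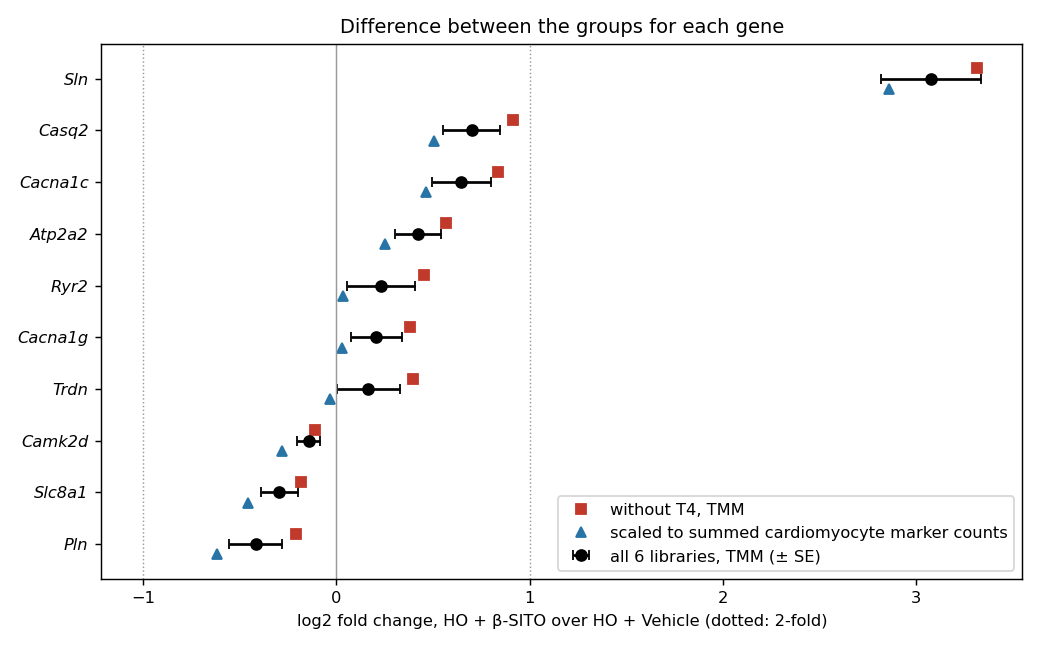
Log2 fold change of each gene, HO + β-SITO over HO + Vehicle, in edgeR with all 6 libraries (black, ± SE), without T4 (red squares) and scaled to the summed counts of the cardiomyocyte markers (blue triangles); dotted lines mark a 2-fold change. Sln alone lies beyond 2-fold (3.08), and leaving out T4 moves every gene up, for example Ryr2 from 0.23 to 0.45.

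Sarcolipin is also known from skeletal muscle, so markers of both other sources are given beside it. Of 10 skeletal muscle markers 4 (Myod1, Myf5, Myh3 and Pax7) had no count in any library. The summed level of the 10 was 21.6 to 25.5 CPM in the HO + Vehicle libraries and 28.8 to 47.6 CPM in the HO + β-SITO libraries, without overlap, most of it Ckm, which heart muscle shares. Of 3 tested genes 1 was a DEG, Tnnt3 (fast skeletal troponin T), with 1, 7 and 6 counts in V1 to V3 and 25, 12 and 17 in T4 to T6 (log2 fold change 1.68, adjusted p = 0.00595). Myh8, a perinatal skeletal myosin, was too low to test, with 0, 1 and 0 counts against 10, 2 and 5. The part of skeletal muscle RNA in the level of Sln was not tested. Among the 20 cardiomyocyte markers the 3 DEGs were Myl7 (24.9 ± 2.17 against 131 ± 35.1 CPM, SD, n = 3), Myl4 (22.5 ± 1.31 against 81.3 ± 17.1 CPM) and Myh7 (13.4 ± 3.26 against 41.0 ± 19.6 CPM). Myl7 and Myl4 encode the atrial myosin light chains. After these values were seen, 9 atrial and 4 ventricular genes were listed, so their values are a description. The 9 atrial genes, which are Myl7, Myl4, Nppa, Bmp10, Kcna5, Stard10, Dkk3, Nr2f1 and Nr2f2, had log2 fold changes of 0.84 to 2.39. The ventricular genes Myl2 (0.27), Myl3 (-0.02) and Irx4 (-0.10) had values near 0, and Hey2 had 1.98. Endothelial cells also express Hey2 and the atrial gene Nr2f2, and the endothelial markers rose in 10 of 10 cases, as given above. T4 was low among the treated libraries for Myl7 (90.2, 150.02 and 152 CPM in T4 to T6), as it was for Sln. It was close to T5 and T6 for Stard10 (19.1, 20.1 and 18.999 CPM), Dkk3 (267, 275 and 269.7 CPM) and Nr2f2 (49.1, 52.8 and 50.3 CPM). For each 100 Myl7 counts there were 4.88, 6.64 and 6.17 Sln counts in V1 to V3 and 9.003, 10.004 and 9.59 in T4 to T6, which did not overlap. For each 100 Myl4 counts there were 4.83, 7.97 and 7.08 against 13.2, 16.6 and 15.9. For each 100 Nppa counts there were 0.250, 0.465 and 0.370 against 1.25, 1.06 and 0.992, with T4 the highest. The groups did not overlap for Myl4 or Nppa either, and the shift was smallest against Myl7. Whether the level of Sln and those of the atrial genes had a common source was not tested.

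A wider list of 86 other calcium genes was read for the rest of the pathway, of which 84 were in the table and 70 were tested. After β-SITO 13 were higher as DEGs and 2 lower, 21.4% of those tested, near the 22.8% of all genes. Their median log2 fold change was 0.14. How far these genes are tied to cardiomyocytes was not measured. The rise of endothelial, macrophage and smooth muscle markers given above stands beside each of the next values. Its part in them was not tested.

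Among channel subunits and their inhibitors, 4 of 12 tested genes were higher and 1 lower. Gem and Rem1 both encode small GTPases of the RGK family, which restrain L-type channels, and they moved in opposite directions. Gem had 78.8 ± 4.24 CPM with vehicle and fell to 11.1 ± 0.983 CPM (SD, n = 3; log2 fold change -2.83, adjusted p = 1.02e-13), whereas Rem1 had 3.51 ± 0.215 CPM and rose to 14.6 ± 1.07 CPM (log2 fold change 2.06, adjusted p = 7.82e-10). Cacna2d2, an auxiliary channel subunit, had 1.73 ± 0.267 against 5.97 ± 1.88 CPM (log2 fold change 1.78, adjusted p = 1.56e-05).

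Store and junction genes gave 3 higher and none lower as DEGs among 18 tested, with none lower as DEGs in DESeq2 or limma-voom either. At an unadjusted p under 0.05 in edgeR, 9 were higher and 3 lower. At an adjusted p under 0.05 alone, 8 were higher and 3 lower, beside 33% and 33.8% of all tested genes. Hrc, a calcium-binding protein of the reticulum lumen, rose from 24.0 ± 3.47 to 53.6 ± 12.9 CPM (SD, n = 3, log2 fold change 1.16, adjusted p = 5.11e-06). Tmem38a, which encodes a potassium channel of the reticulum, had a log2 fold change of 1.10 (adjusted p = 8.10e-07). Fkbp1b, whose product binds the ryanodine receptor, had 1.10 at a low level (1.73 ± 0.369 against 3.70 ± 0.804 CPM, adjusted p = 6.41e-04).

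Of 6 other pump genes and regulators listed, 4 were in the table and only Atp2a3 was tested. Atp2a3 encodes SERCA3, best known from blood and endothelial cells, and rose from 1.94 ± 0.256 to 12.7 ± 1.90 CPM (SD, n = 3, log2 fold change 2.71, adjusted p = 9.38e-10). At that level it remained far below Atp2a2. Of 3 tested extrusion genes Atp2b4, a plasma membrane calcium pump, was a DEG (23.96 ± 2.21 against 53.0 ± 1.32 CPM, log2 fold change 1.15, adjusted p = 2.99e-09). T4 was close to the other treated libraries for Atp2b4, with 51.5, 53.8 and 53.8 CPM in T4 to T6.

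Kinase, phosphatase and anchor genes gave 2 higher DEGs among 19 tested. Camk2b, another CaMKII isoform, rose from 3.57 ± 0.496 to 16.2 ± 2.45 CPM (SD, n = 3, log2 fold change 2.18, adjusted p = 3.13e-09), and its level stayed below that of Camk2d. Pde3a, a phosphodiesterase that breaks down cyclic AMP near the pump, rose from 68.5 ± 5.24 to 178 ± 9.28 CPM (log2 fold change 1.38, adjusted p = 7.24e-11). In store-operated entry, 2 of 8 tested genes were higher and 1 lower. Stim1, the calcium sensor of the store, rose from 25.8 ± 1.23 to 84.4 ± 3.24 CPM (log2 fold change 1.71, adjusted p = 4.55e-12), while Orai2, one of the channels that such sensors open, fell from 98.8 ± 2.20 to 24.2 ± 1.24 CPM (log2 fold change -2.03, adjusted p = 3.71e-13). None of the 9 mitochondrial calcium genes was a DEG with edgeR, DESeq2 or limma-voom. At an unadjusted p under 0.05 each of the 3 tools gave 3 lower and no higher genes, and the lowest log2 fold change was that of Mcur1 (-0.93).

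**Figure D5:**
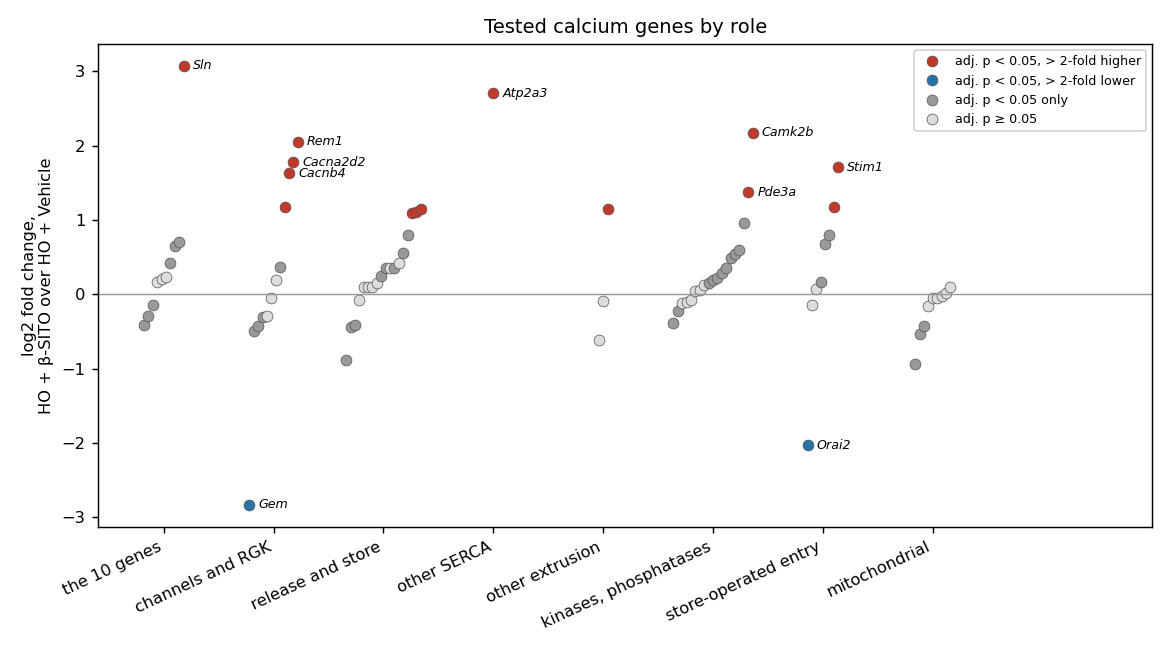
Log2 fold change, HO + β-SITO over HO + Vehicle, of each tested calcium gene by role, with colour for the outcome of edgeR's test; genes beyond 1.3 on the log2 scale are named. Sln (3.08) and Atp2a3 (2.71) are the highest points, Gem (-2.83) and Orai2 (-2.03) the lowest, and no mitochondrial gene reaches 2-fold.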

How the data were processed

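RNA-seq was made from 6 libraries of hypoxic NMCMs, grouped by the treatment in the sample titles. Per the labels and the study's methods, the authors sequenced paired-end reads, and the submitters' processing notes name FastQC, HISAT2, featureCounts and GRCm39. The deposited file holds raw counts per gene, with no normalization. Counting options and whether strand was used are not given in the sources used here.

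From these counts, genes were filtered with filterByExpr, scaled with TMM and tested with edgeR 4.0.16 (R 4.3.3), with group as the only term. Limma 3.58.1 and DESeq2 1.42.0 were alternatives. The SE of a log2 fold change was derived from the F statistic. Exon lengths were the union of exons in GENCODE vM21, matched by gene identifier. Tests were first checked on simulated counts. The 10 genes and all lists were chosen with earlier results of these data known. Genes named from the wider lists were the up to 3 DEGs of each list with the largest change and a mean of at least 20 counts, and of the cell type lists up to 2 markers with the highest level per length. Mcur1, Hey2, Myh6, Tnnt2, Myl7, Myl4, Myh7 and the atrial and ventricular genes were picked after their values were seen. The same holds for the skeletal muscle markers Myod1, Myf5, Myh3, Pax7 and Myh8. Ratios of Sln to Myl7, Myl4 and Nppa and the scaling to a geometric mean were added after the data were seen.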

Additional observations from a re-analysis of the deposited data

How the results depend on the processing

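No paired analysis was possible because the groups share no replicate number. Sln remained the only one of the 10 genes called as a DEG under all 14 other tests, normalizations, filters and left-out libraries and both cardiomyocyte scalings. The number past the adjusted p alone (7) ranged from 4 to 9 with each library left out in turn (4 without V3, 9 without T4). It was 1 (Sln) when scaled to the summed cardiomyocyte counts. When scaled to their geometric mean, a scaling chosen after seeing the data, it was 2 (Sln and Pln). Over all genes the median was -0.01 with TMM, -0.14 with the summed scaling and 0.14 with the upper quartile. The geometric mean scaling moved it to -0.36, with 34.3% of all DEGs higher in place of 55.9% (1231 higher and 2362 lower in place of 1888 and 1492), and gave a log2 fold change of -0.19 for Ryr2, -0.19 for Cacna1g and -0.26 for Trdn, all reversed, and the summed scaling gave -0.0350 for Trdn. With library size only, which moved the median of all genes to 0.14 and the share of higher genes to 63.9%, Camk2d was reversed at 0.00464. The wider calcium list had 8 DEGs in place of 15 with glmTreat, which tests against a 2-fold change. Cardiomyocyte marker DEGs ranged from 3 to 5 with each library left out, 5 without T4. Without V2 the difference in the ratio of Trdn to Ryr2 was 0.0108, and with each library left out it ranged from -0.13 to 0.0108. The other 5 ratios kept their direction in all 7 alternatives. Where no value shows a cause for these changes, the cause was not tested. Low counts limit the precision for Sln in the HO + Vehicle group.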
